A study of Homo sapiens with 60 samples.

Results

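NRF2 and the genes around it were followed in HepG2 cells given herbal extracts. The 10 genes were picked by name and role from the 60675 genes of the count table, not by fold change, but with earlier results of these data known. They are NRF2 itself (gene symbol NFE2L2), its inhibitor KEAP1, its DNA-binding partner MAFG, its competitor BACH1, and 6 inducible targets: NQO1, HMOX1, PIR, OSGIN1, EPHX1 and SLC48A1. All 10 passed the filter on low counts. Across all libraries the lowest count of any of them was 173, for SLC48A1, and the highest was 32020, for NQO1.

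NRF2 is a transcription factor that the adaptor KEAP1 marks for degradation in unstressed cells. Electrophiles and oxidants modify cysteines of KEAP1, NRF2 then builds up, pairs with a small MAF protein such as MAFG, and switches on genes that carry antioxidant response elements. BACH1 competes for the same elements and holds some of the targets down, HMOX1 in particular. In liver cells the targets include enzymes that detoxify quinones and epoxides, enzymes that break down heme, and genes of glutathione and NADPH supply. Much of this control acts on the NRF2 protein, which RNA sequencing does not measure.

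HepG2 is an established cell line that came from a liver tumour, a human hepatocellular carcinoma, so all libraries share 1 genetic background and no normal hepatocyte was included. Cells received an extract for 24 h at 20 (Low), 100 (Medium) or 500 (High) µg/mL. Water extracts of 2 multi-herb formulas were used, SDT (Sibjeondaebo-tang) and PMT (Palmul-tang). Ethanol extracts came from single materials: Glycyrrhizae Radix (licorice root), Poria cocos, Panax ginseng, Atractylodis Rhizoma, Paeoniae Radix and Angelicae Gigantis Radix. There was 1 library a dose for Angelica and Paeonia, 2 for PMT and 3 for each other extract. The reference was DMSO vehicle for the same time, with 3 libraries. The sample labels give it as 0.1% DMSO while the series text gives another percentage, and the DMSO content of the treated cultures is not given. All 60 titles name the same batch, but the set code in the descriptions differs between vehicle (C1) and each pair of extracts (8 to 11). What the code marks is not stated, so an effect of extract against vehicle and a difference between sets cannot be told apart. High and Low of an extract share a code. The labels do not say whether replicates came from separate cultures, so every p-value here reflects the spread among libraries alone, which may be technical.

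Total counts ran from 19057230 to 33233215 per library. Mitochondrial transcripts took 14.7 to 24.8% of counts in treated libraries, against 13.4 to 15.2% in vehicle libraries. All 8 hepatocyte markers tested were expressed, with a summed level of 40780 to 64500 CPM (counts scaled to library size) in treated libraries and 51580 to 53480 CPM in vehicle libraries. Of the leukocyte and macrophage list PTPRC was at 0 throughout, but the 4 genes summed to 971 to 2180 CPM in treated libraries and 1197 to 1343 CPM in vehicle libraries, mostly from LYZ (1143 to 1286 CPM in vehicle). Of the biliary list KRT7 stayed under 1 CPM, while the 3 genes summed to 159 to 305 CPM in treated libraries and 176 to 183 CPM in vehicle libraries, from SOX9 and KRT19. The fibroblast list, of which COL1A1, COL3A1 and DCN stayed under 1 CPM, summed to 2.45 to 17.8 CPM in treated libraries and 5.63 to 7.15 CPM in vehicle libraries, and the endothelial list to 1.66 to 3.23 and 2.22 to 2.45 CPM. The part of these markers in the results below was not tested. Because these are bulk libraries, fewer responding cells and less RNA per cell cannot be told apart.

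The promoter windows of 3 targets are printed because NQO1 and PIR were called higher at High than at Low dose in all 6 replicated extracts and OSGIN1 in 5. Each window runs from 250 bases before to 50 bases after a gene start in RefSeq (GRCh38.p14) and is written 5′ to 3′ on the gene's strand. Capitals mark a match to the antioxidant response element core, searched as TGACNNNGC or TGAGNNNGC on both strands.
NQO1 (chr16:69726511-69726810, minus strand): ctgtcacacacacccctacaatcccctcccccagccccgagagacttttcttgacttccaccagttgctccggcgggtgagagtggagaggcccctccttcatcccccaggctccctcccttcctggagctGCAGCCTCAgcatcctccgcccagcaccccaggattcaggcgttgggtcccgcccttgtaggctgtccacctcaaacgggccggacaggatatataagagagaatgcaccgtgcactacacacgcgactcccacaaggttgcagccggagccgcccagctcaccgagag
PIR (chrX:15493284-15493583, minus strand): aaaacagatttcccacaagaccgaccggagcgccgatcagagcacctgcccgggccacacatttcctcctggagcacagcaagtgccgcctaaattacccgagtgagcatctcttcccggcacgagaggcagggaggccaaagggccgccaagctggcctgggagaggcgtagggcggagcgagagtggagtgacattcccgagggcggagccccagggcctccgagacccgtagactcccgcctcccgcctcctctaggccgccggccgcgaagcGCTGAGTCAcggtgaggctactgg
OSGIN1 (chr16:83952990-83953289, plus strand): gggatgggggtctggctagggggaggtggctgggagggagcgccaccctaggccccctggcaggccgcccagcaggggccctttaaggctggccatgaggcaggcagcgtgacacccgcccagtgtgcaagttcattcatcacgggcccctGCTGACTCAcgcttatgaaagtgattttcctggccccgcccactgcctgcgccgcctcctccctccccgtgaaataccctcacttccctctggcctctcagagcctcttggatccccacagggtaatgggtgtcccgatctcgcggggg

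The PIR match, GCTGAGTCA, begins at base 277 of the window, 26 bases after the start site. The OSGIN1 match, GCTGACTCA, begins at base 152, 99 bases before the start site. Both matches lie on the opposite strand and also hold the AP-1 motif TGANTCA. The longer string TGANTCAGC, which joins both motifs, is in 1.36% of the 35116 windows of the table. The NQO1 match, GCAGCCTCA, begins at base 132 and does not hold TGANTCA. Only the windows were searched, so elements farther from a start site would not be seen. RefSeq windows (15 in all) were matched for 9 of the 10 genes, all but HMOX1. The core was found in 1 window each of NFE2L2, KEAP1, NQO1, PIR, OSGIN1 and EPHX1, and 29.1% of all windows hold it, so a match of these short letters is a description and not a binding site.

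Per kilobase of exon, NQO1 was the most abundant of the 10 genes in vehicle cells, at 116 CPM per kb. EPHX1 followed at 45.5, then HMOX1 at 27.4 and NFE2L2 at 27.0 CPM per kb. OSGIN1 was at 12.9, KEAP1 at 12.2, MAFG at 9.02, PIR at 6.33, BACH1 at 3.55 and SLC48A1 at 2.03 CPM per kb. The highest group mean reached 283 CPM per kb for NQO1, 72.2 for EPHX1, 48.2 for OSGIN1 and 3.74 for SLC48A1. All levels below are CPM on library sizes scaled by the trimmed mean of M values (TMM), and are compared only within a gene.

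NQO1 and PIR were called higher at High than at Low in all 6 replicated extracts, and Glycyrrhiza had the most calls among the 10 genes. Between High and Low dose, Glycyrrhiza raised 8 of the 10 genes and lowered none, by edgeR's quasi-likelihood test (Benjamini-Hochberg adjusted p below 0.05 over 16284 genes). That extract changed 56.3% of all genes tested (28.4% higher and 27.8% lower). Poria raised 7 of 10 and lowered none, against 38.4% of all genes changed (20% higher and 18.4% lower). Ginseng raised 5 and lowered none while changing 5.79% of all genes (2.92% higher and 2.87% lower). Atractylodis raised 4 and lowered none while changing 6.41% (3.39% higher and 3.02% lower). SDT raised 3 and lowered 1 while changing 1.04% (0.522% higher and 0.522% lower), and PMT raised 2 and lowered none while changing 0.516% (0.197% higher and 0.319% lower). Over the 60 pairs of gene and extract, 29 were higher at High than at Low and 1 was lower. Mitochondrial transcripts took 17.8 to 18.4% of counts at High Glycyrrhiza, against 15.1 to 17.0% at Low, and 19.7 to 22.3% at High Poria, against 15.8 to 17.5% at Low. With those transcripts left out of the counts, every one of these High against Low calls held. That step raised the levels of the 10 genes by a near-uniform 21.9 to 22.4% in every replicated group, so it could hardly move a fold change. The part of the mitochondrial share in these calls was not tested. In Glycyrrhiza no alternative setting or left-out library changed any High against Low call.

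**Figure D1:**
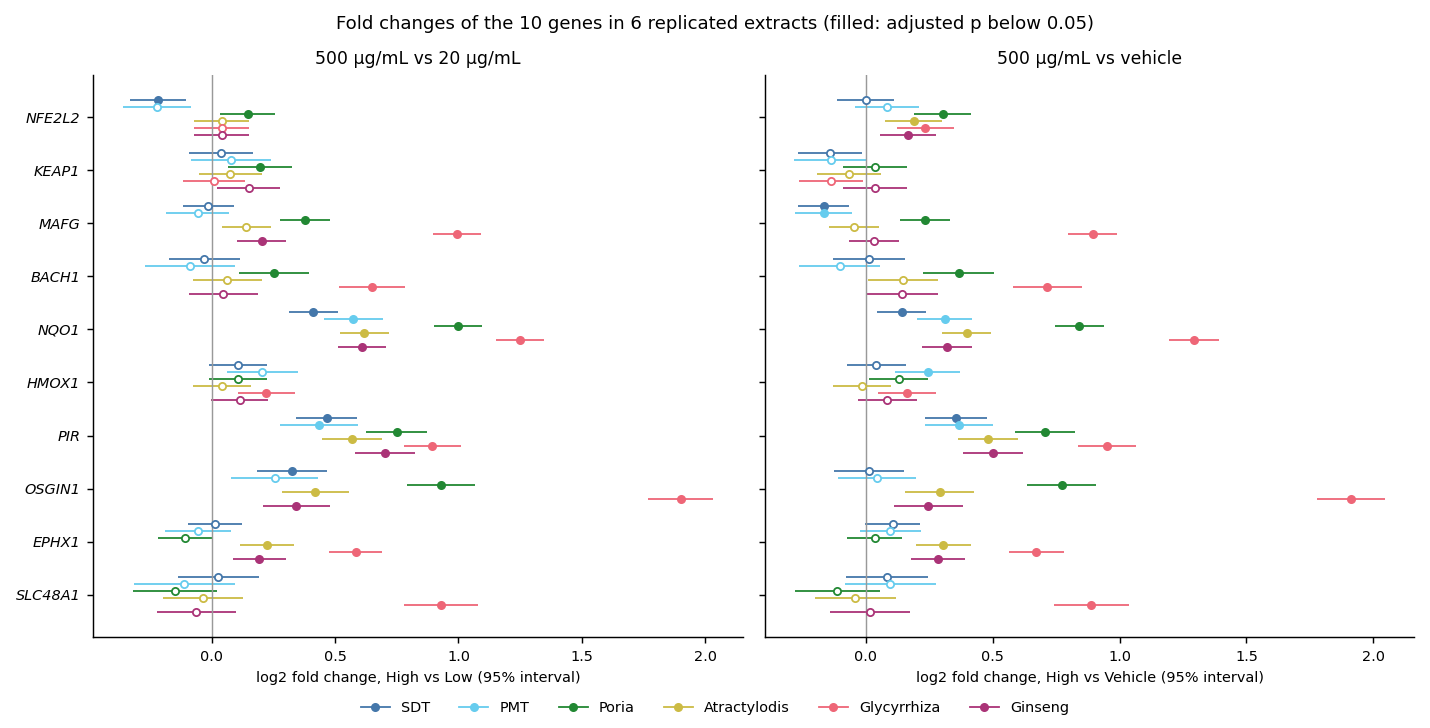
Log2 fold change of each gene in High dose libraries of the 6 replicated extracts against Low (left) and against vehicle (right), with 95% intervals from the edgeR fit; filled points passed the adjusted threshold. NQO1 and PIR lie right of 0 in every extract, whereas SLC48A1 was called in Glycyrrhiza alone, at 0.93 against Low.

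NFE2L2, which encodes NRF2, changed little with dose. Its mRNA was 1.11-fold higher at High than at Low Poria (log2 0.14 ± 0.056 SE, adjusted p = 0.0351 by edgeR's quasi-likelihood test). The High Poria libraries had 205, 198 and 191 CPM, against 177, 184 and 177 CPM in the Low ones. The High and Low Poria ranges did not meet, but the call was lost without High replicate 1 or 2 or without Low replicate 1 or 3, with adjusted p up to 0.146, without the filter on low counts (adjusted p = 0.0988) and with only the groups compared in the fit (adjusted p = 0.153). In SDT it went the other way, with 157, 166 and 159 CPM at High and 188, 182 and 191 CPM at Low. That is a log2 difference of -0.22 ± 0.056 (edgeR adjusted p = 0.0357), and it was lost without High replicate 1 or 3 or without Low replicate 1 or 3, with adjusted p up to 0.159. PMT had almost the same value, -0.22, but its adjusted p was 0.171. In Glycyrrhiza, the extract with the largest target changes, the NFE2L2 log2 difference was 0.04 with a 95% interval of -0.07 to 0.15. The gene for AGPS overlaps NFE2L2 on the other strand and had 3435 counts on average, against 4737 for NFE2L2; the strand setting of the counting is not given in the sources used here. AGPS also rose between High and Low Poria (log2 0.19 ± 0.057, edgeR adjusted p = 0.00657).

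Against vehicle, NFE2L2 was higher in 5 of 6 extracts at Low, 6 of 6 at Medium and 4 of 6 at High by edgeR's test, with log2 differences over all 6 extracts of 0.13 to 0.31 at Low and 0.15 to 0.26 at Medium. All of these comparisons share the 3 vehicle libraries, which had 170, 148 and 166 CPM. Replicate 2 was the low one, and without it the counts were 2 of 6 at Low, 1 of 6 at Medium and 2 of 6 at High. Treated group means ran from 160 CPM in SDT High to 199 CPM in PMT Low among the replicated groups. With all 25 groups in order of level, 23 of the 24 neighbouring pairs overlapped. Groups next to each other in such an order often overlap, and the count was 22 for BACH1 and 17 for OSGIN1.

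KEAP1, the adaptor that marks NRF2 for degradation, was called higher at High than at Low in 1 of the 6 replicated extracts, Poria. The High Poria libraries had 46.5, 44.7 and 49.2 CPM, against 39.7, 37.8 and 45.4 CPM in the Low ones. The ranges overlapped, through Low replicate 3, and the rise was 1.15-fold (log2 0.19 ± 0.064, edgeR adjusted p = 0.0138). It was lost without Low replicate 1 or 2 or without High replicate 3, with adjusted p of 0.0608 to 0.113, and with only the groups compared (adjusted p = 0.114). Against the vehicle libraries at 43.7, 47.6 and 46.6 CPM, KEAP1 was lower at Low SDT and PMT and at Medium SDT, PMT and Atractylodis, by 0.18 to 0.25 on the log2 scale. Without vehicle replicate 2, no extract was called lower at Low and 1 at Medium, whereas without replicate 1 the Low count was 4. In Glycyrrhiza the High against Low log2 difference of KEAP1 was 0.01.

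The partner and the competitor of NRF2 were both called higher at High than at Low in Glycyrrhiza and Poria, where 6 and 3 of the 6 targets were. MAFG, the small MAF protein that pairs with NRF2, had 86.0, 85.9 and 89.9 CPM at High Glycyrrhiza, against 45.5, 41.3 and 44.3 CPM at Low. No library of another group reached this range, the next being Poria High replicate 1 at 58.9 CPM. The increase was 1.99-fold (log2 0.99 ± 0.048, edgeR adjusted p = 1.67e-22). MAFG also rose at High Poria, with 58.9, 50.2 and 55.9 CPM against 41.5, 42.0 and 43.6 CPM at Low (log2 0.38 ± 0.050, edgeR adjusted p = 3.51e-08). At High ginseng the rise was 0.20 on the log2 scale (edgeR adjusted p = 0.00807), and it was lost without High replicate 1 (adjusted p = 0.059). Against vehicle MAFG was lower at Low dose in 4 of 6 extracts, by 0.14 to 0.19 on the log2 scale, and in 3 of 6 when any of the 3 vehicle libraries was left out. MAFG overlaps SIRT7 on the same strand, which also rose in Glycyrrhiza but by less (log2 0.35).

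BACH1, the repressor that occupies the same elements, had 44.0, 45.7 and 44.7 CPM at High Glycyrrhiza, against 29.3, 28.7 and 27.5 CPM at Low. The difference was 1.57-fold (log2 0.65 ± 0.067, edgeR adjusted p = 1.68e-11). At High Poria its libraries were spread, at 30.1, 34.7 and 40.2 CPM, against 28.5, 31.4 and 28.5 CPM at Low, and the ranges overlapped. The Poria rise of 0.25 on the log2 scale (edgeR adjusted p = 0.00341) was lost without High replicate 3, when it was 0.14 (adjusted p = 0.147), and with only the groups compared (adjusted p = 0.0894). The other 4 extracts gave log2 differences with no call for BACH1. Against vehicle, BACH1 was called higher at High in 2 of 6 extracts, Glycyrrhiza (log2 0.715) and Poria. With each of the 6 libraries compared left out in turn, the Poria value was 0.25 to 0.46 (edgeR adjusted p up to 0.00389). At Medium 2 of 6 extracts were higher than vehicle, and 0 of 6 without vehicle replicate 1 or 2. Vehicle and extracts differ in set code.

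**Figure D2:**
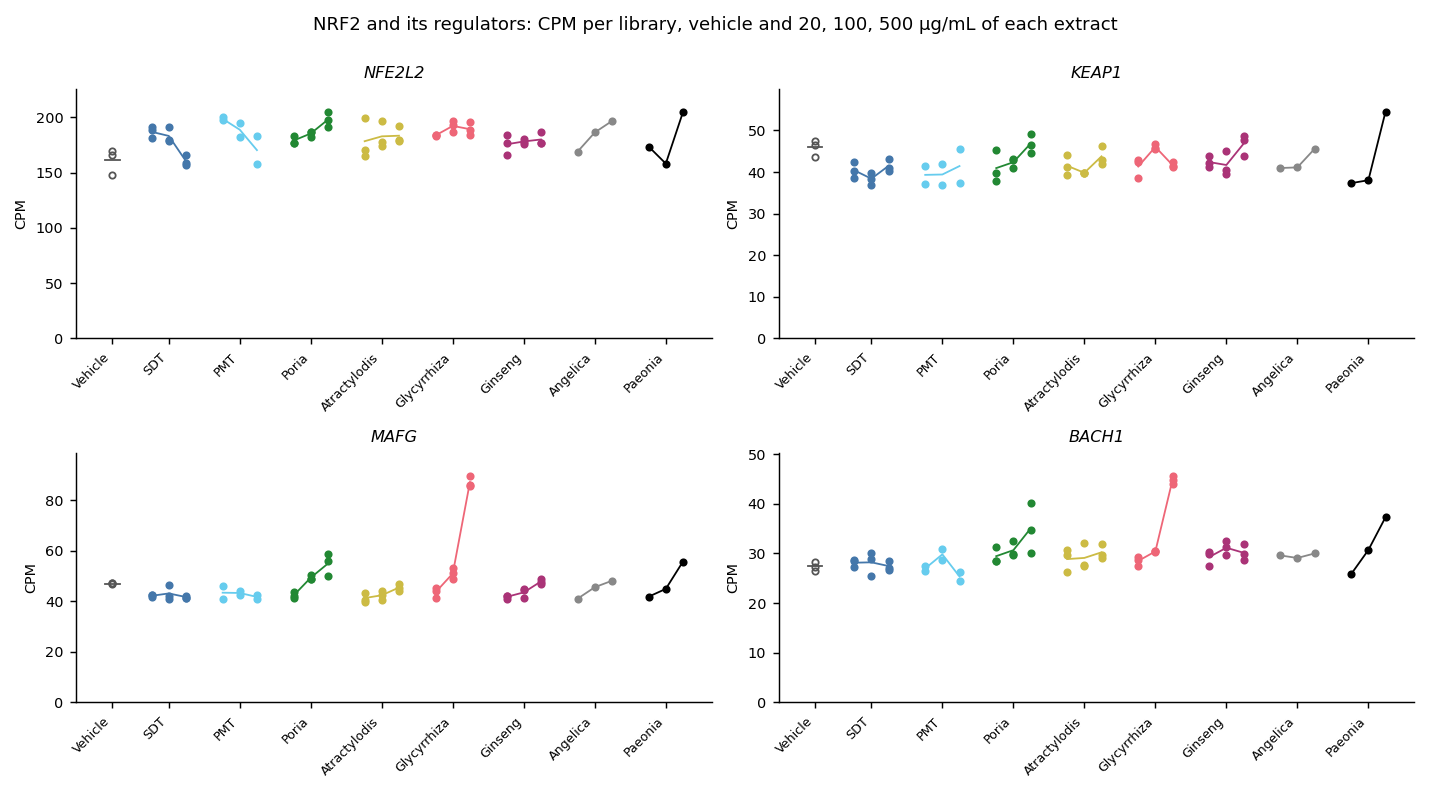
CPM of NFE2L2, KEAP1, MAFG and BACH1 in every library, by extract and dose with vehicle at the low end; points are libraries, lines join the group means and a bar marks the vehicle mean. MAFG and BACH1 stand highest in the 3 Glycyrrhiza High libraries, at 85.9 to 89.9 and 44.0 to 45.7 CPM, while NFE2L2 and KEAP1 show no such step.

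NQO1, the quinone-reducing enzyme often used as a readout of NRF2, rose with dose in all 6 replicated extracts. Vehicle libraries had 393, 376 and 361 CPM. With Glycyrrhiza the values were 387, 393 and 379 CPM at Low, 635, 675 and 652 CPM at Medium and 927, 945 and 887 CPM at High. Every step upward from Low was free of overlap, and High exceeded Low 2.38-fold (log2 1.25 ± 0.049, edgeR adjusted p = 7.22e-26). With Poria they were 332, 331 and 346 CPM at Low, 503, 437 and 464 CPM at Medium and 684, 638 and 692 CPM at High. The Poria High against Low ratio was 2.00 (log2 1.00 ± 0.049, edgeR adjusted p = 2.71e-21), again with no overlap at any step. In the other 4 extracts Medium against Low was not called, with log2 differences of 0.08 to 0.19. Medium and Low still did not overlap in PMT, at 351 and 360.0 CPM against 302 and 323 CPM, or in ginseng, at 333 to 347 CPM against 301 to 316 CPM. Medium was not tested against High.

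High Atractylodis had 518, 499 and 467 CPM of NQO1, against 312, 328 and 326 CPM at Low, a log2 difference of 0.62. High ginseng had 481, 460.0 and 462 CPM, against 301, 316 and 307 CPM at Low, a log2 difference of 0.61. High PMT had 443 and 487 CPM, against 323 and 302 CPM at Low, a log2 difference of 0.57 (edgeR adjusted p = 1.22e-08). High SDT was lowest of the 6, with 399, 426 and 414 CPM, against 308, 333 and 292 CPM at Low, a log2 difference of 0.41 (edgeR adjusted p = 1.62e-07). High and Low were apart in each extract, and no alternative setting or left-out library removed any of the 6 calls.

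In 5 of 6 extracts the vehicle level of NQO1 lay between those of High and Low. At Low dose NQO1 was lower than vehicle in 5 of 6 extracts, by 0.15 to 0.29 on the log2 scale, and in Glycyrrhiza it did not pass the test (log2 0.04). The Poria call (-0.15) was lost without vehicle replicate 1 or 2, without Poria Low replicate 1 or 2 and with only the groups compared, with adjusted p of 0.0524 to 0.141. At Medium dose NQO1 was lower than vehicle in 3 of 6, SDT (log2 -0.16), ginseng (-0.15) and Atractylodis (-0.14), and higher in Poria and Glycyrrhiza. Each of the lower calls was lost without at least 1 of the libraries compared, with edgeR adjusted p up to 0.138. At High dose NQO1 was higher than vehicle in 6 of 6, from 0.14 in SDT to 1.29 in Glycyrrhiza. The SDT call was lost without vehicle replicate 2 or 3, without SDT High replicate 2 or 3 and without the filter on low counts, with adjusted p up to 0.126. The same 3 vehicle libraries enter all of these comparisons, and the set code differs between them and every extract.

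PIR, the gene for the iron-binding nuclear protein pirin, also rose with dose in all 6 replicated extracts. High Glycyrrhiza had 30.6, 29.8 and 31.7 CPM, against 16.0, 16.1 and 17.3 CPM at Low (1.86-fold, log2 0.89 ± 0.057, edgeR adjusted p = 3.79e-18). High Poria had 25.0, 28.4 and 24.2 CPM, against 14.4, 15.5 and 16.2 CPM at Low (log2 0.75). High ginseng had 23.5, 22.1 and 21.6 CPM, against 14.6, 13.3 and 13.6 CPM at Low (log2 0.70). High and Low did not overlap in any of these extracts, and Atractylodis and SDT gave log2 differences of 0.57 and 0.47, likewise without overlap. In PMT the High libraries had 19.3 and 21.5 CPM, against 16.3 and 13.9 CPM in the Low ones (log2 0.43, edgeR adjusted p = 0.00121). The PMT call was lost without High replicate 3 (adjusted p = 0.118) or Low replicate 3 (adjusted p = 0.262), and with only the groups compared (adjusted p = 0.172). At Medium dose PIR was already up in Poria (log2 0.48) and Glycyrrhiza (log2 0.58), and in ginseng its value was 0.29 with an adjusted p of 0.0976. Medium and Low ginseng did not overlap, at 16.5 to 17.3 CPM against 13.3 to 14.6 CPM, and PIR was called there without the filter on low counts (adjusted p = 0.046) and with a block of set code by replicate number (adjusted p = 0.0381). Against vehicle, PIR was called higher at High in 6 of 6 extracts, by 0.36 to 0.95 on the log2 scale. All 6 calls held with any vehicle library left out. At Medium 2 of 6 were higher, and at Low 1 of 6 was lower, ginseng (-0.20), which was lost without vehicle replicate 1. The set code differs between vehicle and every extract.

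OSGIN1, a stress-induced growth inhibitor, showed the largest change of the 10 genes. High Glycyrrhiza had 164, 168 and 169 CPM, against 44.5, 44.1 and 45.3 CPM at Low. That is 3.73-fold (log2 1.90 ± 0.066, edgeR adjusted p = 1e-27), and the Medium libraries, at 62.9, 68.5 and 62.7 CPM, lay between with no overlap. High Poria had 78.8, 78.3 and 69.7 CPM, against 38.8, 37.6 and 42.7 CPM at Low (1.90-fold, log2 0.93 ± 0.068). Both extracts raised OSGIN1 already at Medium dose, by 0.54 in Glycyrrhiza and 0.35 in Poria on the log2 scale.

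The other 4 extracts gave smaller values for OSGIN1. High Atractylodis had 53.5, 53.4 and 56.0 CPM, against 40.4, 37.4 and 43.8 CPM at Low (log2 0.42), and ginseng gave a log2 difference of 0.34. In SDT the High libraries had 44.4, 43.4 and 46.3 CPM, against 34.3, 39.4 and 33.5 CPM at Low (log2 0.32, edgeR adjusted p = 0.0082), and the call was lost without High replicate 3 or Low replicate 1 or 3, with adjusted p up to 0.12. PMT at Low was split, at 44.1 and 32.4 CPM, and its log2 difference of 0.26 had an adjusted p of 0.263. Without PMT Low replicate 2 that difference was 0.49. Vehicle libraries had 41.9 to 46.7 CPM of OSGIN1, with a mean of 44.5 CPM. High SDT and High PMT, with means of 44.7 and 45.6 CPM, were not called against vehicle, whereas the other 4 extracts were higher at High. At Low dose OSGIN1 was called lower than vehicle in SDT (log2 -0.31) and PMT (log2 -0.21). The PMT value was -0.0053 without PMT Low replicate 3.

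EPHX1, the microsomal epoxide hydrolase, was called higher at High than at Low in 3 of the 6 replicated extracts, without Poria among them. High Glycyrrhiza had 183, 184 and 176 CPM, against 122, 118 and 122 CPM at Low (1.5-fold, log2 0.58 ± 0.053, edgeR adjusted p = 4.42e-13). Atractylodis and ginseng gave smaller rises, 0.22 (edgeR adjusted p = 0.00543) and 0.19 (edgeR adjusted p = 0.0221) on the log2 scale. The Atractylodis call was lost without High replicate 1 (adjusted p = 0.0644) and with only the groups compared (adjusted p = 0.0586), and the ginseng call without High replicate 2 or 3 or Low replicate 2 (adjusted p of 0.0813 to 0.167). Poria at Medium had 108, 113 and 99.2 CPM, against 130.4, 116 and 129 CPM at Low, so EPHX1 fell to its lowest group mean there (log2 -0.23 ± 0.054, edgeR adjusted p = 0.00187). With only the groups compared that call was lost (adjusted p = 0.0701). At High Poria the value was -0.11 with no call, and it was called lower without High replicate 1 (-0.18) or Low replicate 2 (-0.16). EPHX1 is also known as a target of the xenobiotic receptors PXR and CAR. It overlaps TMEM63A on the other strand, which did not pass the test in Glycyrrhiza (log2 0.09).

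HMOX1, the heme-degrading enzyme that is the best known target of both NRF2 and BACH1, moved little. High Glycyrrhiza had 73.0, 76.8 and 70.4 CPM, against 59.3, 64.0 and 65.4 CPM at Low, 1.17-fold without overlap (log2 0.22 ± 0.057, edgeR adjusted p = 0.000936). That was the only High against Low call among the 6 replicated extracts. Poria at Medium had 56.7, 56.6 and 57.1 CPM, against 63.8, 66.9 and 69.1 CPM at Low, so HMOX1 fell there (log2 -0.23 ± 0.058, edgeR adjusted p = 0.00395). High Poria was uneven, at 80.9, 63.7 and 70.3 CPM, and became a call without its replicate 2 (log2 0.18, adjusted p = 0.0145). In PMT the High libraries had 79.6 and 75.6 CPM, against 65.9 and 68.6 CPM at Low, apart but with an adjusted p of 0.276. Against vehicle, HMOX1 was called higher at High in 2 of 6 extracts, PMT (log2 0.24, edgeR adjusted p = 0.00301) and Glycyrrhiza (log2 0.16, edgeR adjusted p = 0.0126). The Glycyrrhiza call was lost without vehicle replicate 3 or High replicate 2, with adjusted p of 0.0644 and 0.0829. Without PMT High replicate 2 the PMT value was 0.20. At Medium HMOX1 was called lower than vehicle in Poria alone (log2 -0.21).

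SLC48A1, which carries heme out of endosomes and lysosomes, rose in licorice at the top dose. High Glycyrrhiza had 18.7, 18.5 and 18.0 CPM, against 9.62, 9.28 and 10.1 CPM at Low (1.90-fold, log2 0.93 ± 0.074, edgeR adjusted p = 6.51e-15). The Medium libraries, at 9.89, 10.2 and 8.90 CPM, overlapped the Low ones. In the other 5 replicated extracts the High against Low value ran from -0.15 to 0.03 with no call. In the order of levels 21 of the 24 neighbouring pairs of groups overlapped. MAFG had the same count, so it does not show how far a gene moved. HDAC7 overlaps SLC48A1 on the other strand with 618 counts on average, against 278 for SLC48A1, and fell in Glycyrrhiza (log2 -0.23).

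**Figure D3:**
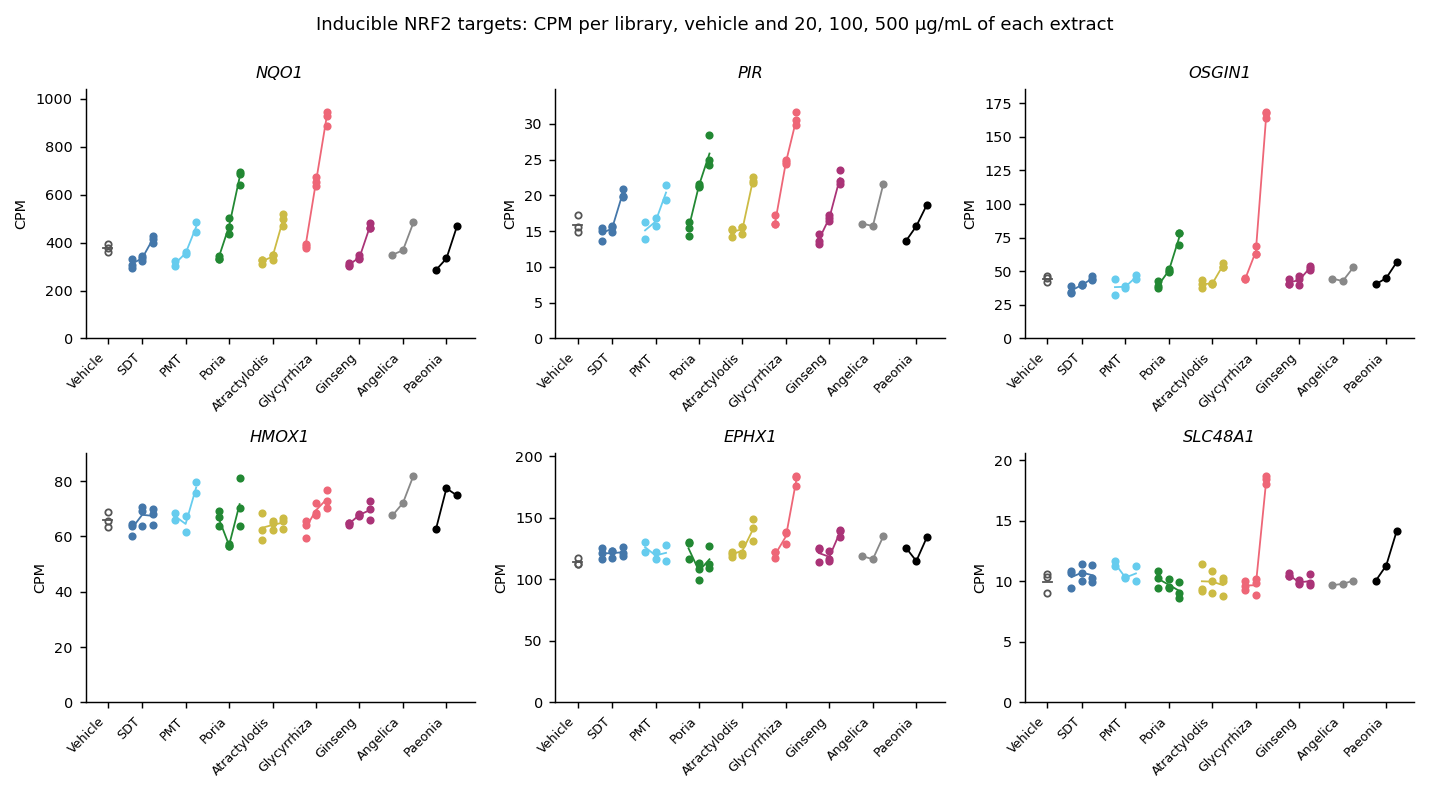
CPM of the 6 targets in every library, by extract and dose with vehicle at the low end; points are libraries, lines join the group means and a bar marks the vehicle mean. NQO1, PIR and OSGIN1 climb with dose in Poria and Glycyrrhiza, and SLC48A1 stands apart in the Glycyrrhiza High libraries, at 18.0 to 18.7 CPM.

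At Medium against Low dose edgeR called genes of the 10 in Poria and Glycyrrhiza, and none in the other 4 replicated extracts. Whether the extracts differ at this dose was not tested. Glycyrrhiza raised MAFG, NQO1, PIR and OSGIN1, 4 of 10 genes against 3.56% of all genes (1.77% higher and 1.79% lower). Poria raised the same 4 genes and lowered HMOX1 and EPHX1, 6 of 10 genes against 15.5% of all genes (8.16% higher and 7.29% lower). With only the groups compared, MAFG (adjusted p = 0.0531) and EPHX1 (adjusted p = 0.0701) were not called in Poria. SDT, PMT, Atractylodis and ginseng had 0 calls by edgeR, where 0.00614%, 0%, 0% and 0.00614% of all genes were called. At an unadjusted p under 0.05 these extracts had 2, 1, 0 and 2 of the 10 genes, and DESeq2 called 0 in each. The ginseng count was 1, for PIR, under the 2 settings given above.

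Against vehicle the background was broad, so counts carry less. At High dose Glycyrrhiza had 9 genes higher and 0 lower, where 31.1% of all genes were higher and 30.2% lower. The same counts were 6 and 0 in Poria (26.3% and 24.8%), 5 and 0 in ginseng (18.5% and 17.8%) and 5 and 0 in Atractylodis (17.3% and 16.7%). They were 3 and 1 in PMT (15.3% and 13.9%) and 2 and 1 in SDT (17.8% and 16.4%). At Medium dose they were 6 and 0 in Glycyrrhiza (17.9% and 17%), 5 and 1 in Poria (19.7% and 18.9%) and 2 and 1 in ginseng (15.3% and 14.6%). Atractylodis had 1 higher and 3 lower (14.7% and 13.6%), PMT 1 and 2 (15.4% and 14.2%) and SDT 1 and 2 (18.2% and 17.8%). At Low dose SDT had 1 higher and 4 lower (18.3% and 17.6%), PMT 2 and 3 (16.1% and 15%) and ginseng 0 and 3 (16.8% and 16.6%). Atractylodis had 1 and 2 (13.7% and 13.1%), Poria 1 and 2 (9.9% and 9.32%) and Glycyrrhiza 1 and 0 (15.2% and 14.5%). Over all 60 pairs of gene and extract, 30 were higher and 2 lower at High, and 6 were higher and 14 lower at Low. These pairs share the 3 vehicle libraries and are not independent. NFE2L2 gave 5 of the 6 higher at Low, and NQO1 and MAFG gave 5 and 4 of the 14 lower.

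Whether an extract's High against Low change differed from another's was tested in the same fit, as a difference of log2 changes. Glycyrrhiza exceeded Poria for 6 of 10 genes (45.6% of all genes differed, 21.8% upward and 23.8% downward). The gap was largest for SLC48A1 (1.08, 95% interval 0.85 to 1.31) and OSGIN1 (0.97, 0.78 to 1.16) and small for NQO1 (0.25, 0.12 to 0.39, edgeR adjusted p = 0.00201). For PIR the difference was 0.15 with an interval of -0.02 to 0.31, and for HMOX1 0.12 with an interval of -0.05 to 0.28, neither passing the test. Without Poria High replicate 2 the PIR difference passed (0.22, adjusted p = 0.0299), and without Poria High replicate 1 that of HMOX1 did (0.21, adjusted p = 0.0207). KEAP1 had -0.19, which passed without Poria Low replicate 3 (-0.27, adjusted p = 0.0141) or Glycyrrhiza Low replicate 2 (-0.23, adjusted p = 0.0463).

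Glycyrrhiza also exceeded ginseng, which carries the same set code, for 6 of 10 genes (45.4% of all genes differed, 22.3% upward and 23.1% downward). OSGIN1 differed by 1.56 (1.37 to 1.75), SLC48A1 by 0.99 (0.77 to 1.21) and NQO1 by 0.64 (0.50 to 0.78). PIR was close to the threshold, at 0.19 with an interval of 0.03 to 0.36 (edgeR adjusted p = 0.0548). It passed without any of 4 libraries in turn: Ginseng High replicate 1, Ginseng Low replicate 2, Glycyrrhiza High replicate 2 or Glycyrrhiza Low replicate 3, with adjusted p of 0.0283 to 0.0441. With mitochondrial genes left out it passed narrowly (0.20, edgeR adjusted p = 0.0498).

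Poria differed from Atractylodis, again within a set code, for 4 of 10 genes (19% of all genes, 10.3% upward and 8.66% downward). NQO1, OSGIN1 and MAFG rose more with Poria, by 0.38, 0.51 and 0.24, and EPHX1 less, by -0.33 (95% interval -0.49 to -0.18, edgeR adjusted p = 0.0011). The MAFG difference was lost without Poria High replicate 1 (0.19, adjusted p = 0.0687), and BACH1 then passed (0.29, adjusted p = 0.0302). Atractylodis against ginseng gave 0 of 10 calls (0% of all genes), 0 at an unadjusted p under 0.05 and 0 by DESeq2. Its NQO1 difference was 0.01 with an interval of -0.13 to 0.15, so differences larger than these bounds lie outside the interval while smaller ones do not.

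**Figure D4:**
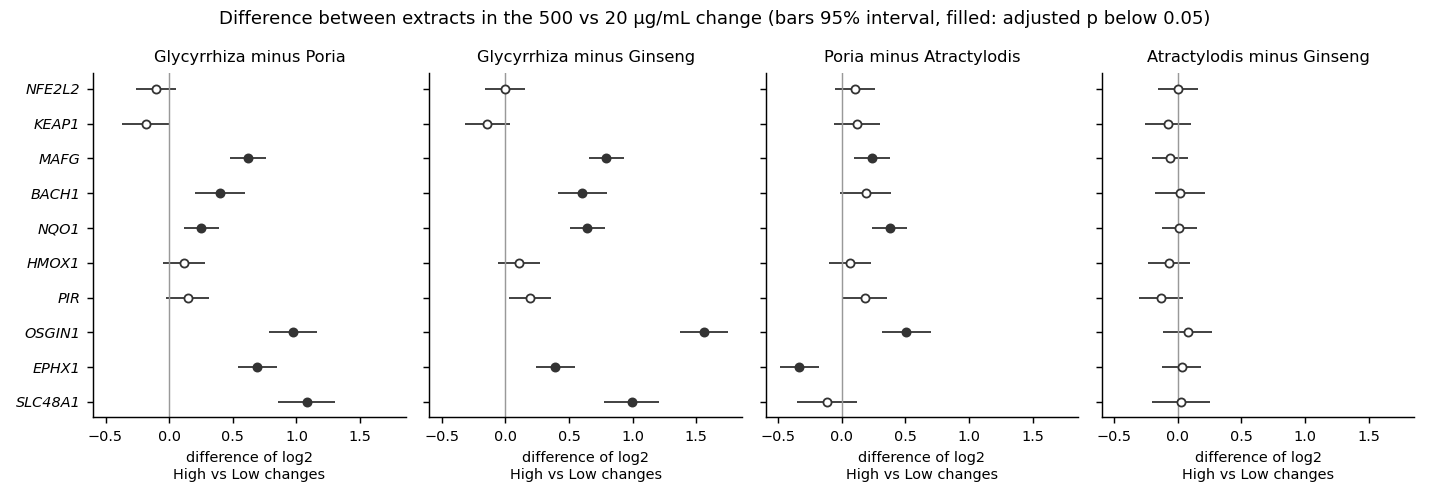
Difference between extracts in the High against Low log2 fold change of each gene, with 95% intervals, for Glycyrrhiza minus Poria, Glycyrrhiza minus ginseng, Poria minus Atractylodis and Atractylodis minus ginseng. OSGIN1 and SLC48A1 lie far right of 0 in both licorice panels, at 0.97 to 1.56 and 0.99 to 1.08, and every interval of Atractylodis minus ginseng spans 0.

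Other genes of the pathway changed as well. The gene lists used from here on were drawn up by role, with earlier results of these data known. Of 31 further NRF2 targets listed by role, 29 were measured. High against Low, edgeR called 24 higher and 3 lower in Glycyrrhiza, with a median log2 change of 0.85 against 0.01 over all genes, where 28.4% of all genes were higher and 27.8% lower. ABCC3, an export pump for conjugates, rose most there (log2 2.65), and GPX2, a glutathione peroxidase, fell most (log2 -0.58). Poria had 20 higher and 3 lower with a median of 0.53, where 20% of all genes were higher and 18.4% lower, led by the aldo-keto reductase AKR1B10 (log2 2.7), while SLC6A9, a glycine transporter, fell by 0.76 on the log2 scale. Ginseng had 21 higher and 0 lower (median 0.32; 2.92% of all genes higher), and Atractylodis 19 and 0 (median 0.32; 3.39% of all genes). SDT had 13 and 0 (median 0.18; 0.522% of all genes), and PMT 4 and 0 (median 0.20; 0.197% of all genes). AKR1B10 rose most in each of these 4, by 1.51, 1.53, 0.66 and 0.77 in that order.

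Among 13 measured regulators of NRF2 outside the 10 genes, SQSTM1 stood out. It encodes p62, an adaptor that binds KEAP1 and directs it to autophagy. It rose by 1.92 in Glycyrrhiza and by 1.64 in Poria on the log2 scale, the largest rise of the list in each. Whether the SQSTM1 rise came before or after any change in NRF2 was not tested. Glycyrrhiza had 5 of the 13 higher and 2 lower, and Poria 6 higher and 1 lower, with list medians of 0.03 and 0.10. The 7 of 13 called in Glycyrrhiza were close to the 56.3% of all genes called there, and the 7 of 13 in Poria stood beside 38.4%. The largest falls were RBX1, a ligase subunit that works with KEAP1 (log2 -0.45 in Glycyrrhiza), and RXRA, a nuclear receptor that restrains NRF2 (log2 -0.47 in Poria). SQSTM1 was the only regulator called in ginseng (log2 0.42), SDT (log2 0.22) and PMT (log2 0.25). In that order, 5.79%, 1.04% and 0.516% of all genes were called. In Atractylodis 2 of 13 were called, SQSTM1 highest (log2 0.34), beside 6.41% of all genes.

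The counts of the lists that follow stand beside 28.4% of all genes higher and 27.8% lower in High against Low Glycyrrhiza, and 20% and 18.4% in Poria. Of 12 genes of heme handling, 8 rose and 2 fell in High against Low Glycyrrhiza, with BLVRB, a biliverdin reductase, highest (log2 1.55) and HPX, the heme carrier of plasma, lowest (log2 -1.17). In Poria 4 rose and 3 fell, HPX again lowest (log2 -0.73). BLVRB and ABCB6 also stand on the list of further NRF2 targets, so the counts of these lists are not separate. Lists for other inducers of the same genes moved as well. All 6 aryl hydrocarbon receptor (AhR) targets, a receptor that also acts on NQO1, rose in Glycyrrhiza (median log2 3.19), against 2 of 6 in Poria, 2 of 6 in SDT, 2 of 6 in PMT, 1 of 6 in Atractylodis and 0 of 6 in ginseng, where 0.522%, 0.197%, 3.39% and 2.92% of all genes rose in the last 4. All 5 measured targets of the stress factor ATF4, which also acts on HMOX1, rose in Glycyrrhiza (median log2 1.96), and 3 rose and 1 fell in Poria. Of 6 PXR and CAR targets 4 rose in Glycyrrhiza. Of the 8 hepatocyte markers 6 fell and 1 rose there, with a median of -0.45 and AFP lowest (log2 -0.86). The part of these in the results above was not tested.

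**Figure D5:**
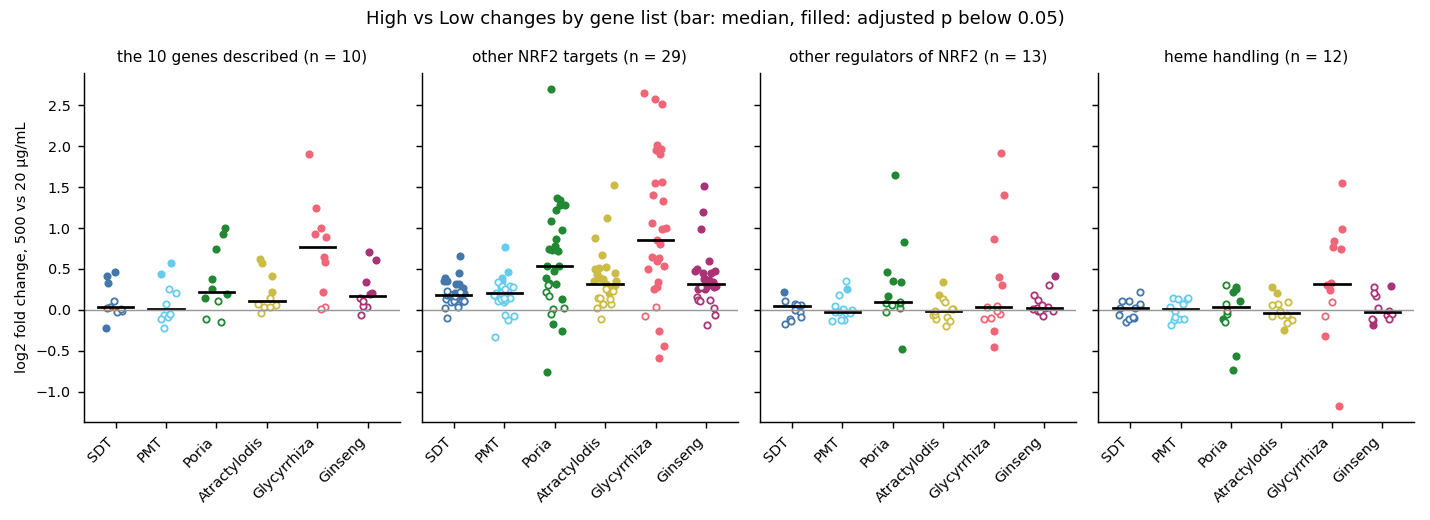
High against Low log2 fold changes of the genes of each list in the 6 replicated extracts; each point is a gene, filled where it passed the adjusted threshold, and each bar is the list median. The further NRF2 targets sit above 0 in all 6 extracts by their median, from 0.18 in SDT to 0.85 in Glycyrrhiza.

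Over the 19 replicated groups, which share the vehicle, the scaling and in part the set codes, NQO1 and PIR group means ran together (Pearson r 0.97 on log2 CPM). MAFG and OSGIN1 did so at 0.97, NQO1 and OSGIN1 at 0.93 and MAFG and BACH1 at 0.91, whereas NQO1 and NFE2L2 gave 0.27 and NQO1 and HMOX1 0.48. The 5 genes outside the 10 most alike to NQO1 by this measure were TXN (0.967), TALDO1 (0.963), TXNRD1 (0.959), CPLX2 (0.958) and MGST1 (0.956). For HMOX1 they were FAUP4 (0.820), ENSG00000273998 (0.798), AGAP2-AS1 (0.771), PMS2P5 (0.756) and PRICKLE3 (0.744).

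Angelica and Paeonia had 1 library a dose, so their ratios carry no replicate check and no test. NQO1 in Paeonia had 467 CPM at High, against 285 CPM at Low, a log2 ratio of 0.71 with a pseudocount of 1. It was the only one of the 10 genes past 1.5-fold in High against Low (7.17% of all genes were), and in Angelica none of the 10 was (1.09%). NQO1 in Angelica had 484 CPM at High, against 349 CPM at Low (log2 0.47). None of the 10 genes was past 1.5-fold against vehicle or between Medium and Low in either extract, where 0.528 to 9.82% of all genes were. Paeonia High held the highest single KEAP1 level of all 60 libraries, 54.5 CPM, and the second highest group level of SLC48A1, 14.2 CPM. Angelica High held the highest HMOX1 level, 82.0 CPM.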

How the data were processed

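The deposited table held RSEM expected counts for 60675 genes, made by the authors from reads handled with FastQC 0.11.9, Trim Galore 0.6.5, STAR 2.7.3a and RSEM 1.3.3 on hg38/GRCh38, per the submitters' processing notes. Strand setting and annotation release are not given in the sources used here. Of the nonzero values, 23.4% were not whole within 0.005, so expected counts were rounded before testing. Another 210 columns of the table belong to no sample used here and were left out. Gene symbols were matched for 56558 IDs and GENCODE positions for 57055.

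Genes were filtered with filterByExpr (16284 kept), scaled by TMM and tested in edgeR 4.0.16 under R 4.3.3 with the quasi-likelihood test, 1 coefficient a group, in 54 libraries of 19 groups that share 1 estimate of the spread (common dispersion 0.00317, a coefficient of variation of 5.63%). Calls use a Benjamini-Hochberg adjusted p below 0.05 over all genes tested. Comparisons were High and Medium against Low, each dose against vehicle, and differences of High against Low changes between extracts. CPM levels use all 60 libraries, and CPM per kb uses union exon length. Angelica and Paeonia, with 1 library a dose, were described by log2 ratios with a pseudocount of 1. Total counts of 19057230 to 33233215 per library set the precision, and intervals are 95%. The script was tested on simulated counts.

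The members and gene lists were chosen with earlier results of these data known, by role and not by fold change. List genes named in the text are those with the largest rise or fall of a list, and the genes most alike to NQO1 and HMOX1 are the 5 with the highest correlation of group means. A wortmannin control in the series text was not analysed here. Alternatives were DESeq2 1.42.0 (size factors, and its Wald test), no filter on low counts, only the groups compared, a replicate block (also within Atractylodis, the extract whose same-numbered libraries deviated together in all dose pairs, r of 0.26 to 0.804; nothing in the labels says what a number shares), mitochondrial genes left out, and each library left out in turn.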

Additional observations from a re-analysis of the deposited data

Results flagged for a closer look

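These results differed between extracts under the same contrast, by a test of the difference of High against Low log2 changes in edgeR's quasi-likelihood fit with Benjamini-Hochberg adjustment over 16284 genes. Glycyrrhiza minus Poria was positive for SLC48A1 (1.08, adjusted p = 5.79e-11), OSGIN1 (0.97, adjusted p = 7.15e-12), EPHX1 (0.69, adjusted p = 2.22e-10), MAFG (0.62, adjusted p = 3.66e-10), BACH1 (0.40, adjusted p = 0.000755) and NQO1 (0.25, adjusted p = 0.00201). Under every alternative and left-out library these 6 differences kept their sign and passed the threshold, the highest adjusted p being 0.0116, for BACH1.

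Glycyrrhiza minus Ginseng was positive for OSGIN1 (1.56, adjusted p = 1.8e-18), SLC48A1 (0.99, adjusted p = 1.82e-10), MAFG (0.79, adjusted p = 2.33e-13), NQO1 (0.64, adjusted p = 8e-11), BACH1 (0.60, adjusted p = 1.08e-06) and EPHX1 (0.39, adjusted p = 2.78e-05). The highest adjusted p over the alternatives was 0.000196, for EPHX1. The High against Low value of SLC48A1 was 0.93 in Glycyrrhiza, against -0.15 in Poria and -0.06 in Ginseng, and that of OSGIN1 was 1.90 in Glycyrrhiza, against 0.93 in Poria and 0.34 in Ginseng.

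Poria minus Atractylodis was positive for OSGIN1 (0.51, adjusted p = 8.99e-05), NQO1 (0.38, adjusted p = 4.33e-05) and MAFG (0.24, adjusted p = 0.0128), and negative for EPHX1 (-0.33, adjusted p = 0.0011). In Poria NQO1 rose while EPHX1 had a High against Low value of -0.11, whereas both were called higher in Atractylodis. MAFG was the least stable of the 4, with adjusted p of 0.0687 without Poria High replicate 1, 0.102 with only the groups compared and 0.11 without the filter on low counts.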

How the results depend on the processing

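Of 4410 recomputed values for the 340 results of single genes, 4218 kept direction and side of the threshold, 143 lost the call, 49 gained one and 0 reversed. With only the groups compared in the fit, the number of the 10 genes called was 1 for PMT and 4 for Poria in High against Low (2 and 7 as reported), and 0 for Poria and 2 for Glycyrrhiza in Low against Vehicle (3 and 1 as reported). Those fits have fewer libraries. Without the filter on low counts it was 1 for Medium against Low Ginseng (0 as reported) and 1 for Low against Vehicle Poria. With mitochondrial genes left out, the levels of the 10 genes in the 19 groups stayed within 1 SD in 0 cases, since a smaller library size raises every CPM by 21.9 to 22.4%.

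Replicate numbers paired the doses in Atractylodis (every pair over 0.1, 0.26 to 0.804, and every High library matched its own number at Low best, 3 of 3) but not in every extract: over all 6, deviations from group means correlated at -0.43 to 0.804 between doses (27 of 51 pairs over 0.1, among them all 3 High and Medium pairs of Poria and of SDT) and at -0.49 to 0.251 between High and Vehicle (3 of 17 pairs), over 5000 genes. PMT has 2 libraries a group, so both of its replicate numbers give the same r between 2 doses by construction. The 51 pairs are therefore not independent. The High against Low match was 1 of 3 for Poria and for Ginseng, and 0 of 3 for SDT and for Glycyrrhiza. A replicate block within Atractylodis, added after the data were seen, moved none of the 40 values of single genes that it touches (doses of Atractylodis and differences of dose responses) across the threshold. A block over all libraries gave 5 calls for Low against Vehicle Poria and 2 for Glycyrrhiza, and a block of set code by number gave 1 for Medium against Low Ginseng. These blocks moved no other count by over 1.5 times.

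Leaving out each library in turn gave 2 to 4 calls for High against Low SDT, 1 to 3 for PMT, 5 to 7 for Poria, 3 to 5 for Atractylodis, 8 for Glycyrrhiza and 4 to 5 for Ginseng. Against Vehicle the ranges were 2 to 4 for High PMT, 0 to 2 for Medium PMT, 1 to 3 for Medium Atractylodis, 0 to 3 for Medium Ginseng, 2 to 4 for Low PMT, 0 to 5 for Low Poria and 0 to 2 for Low Glycyrrhiza. Where this leaves 1 PMT library in a group, that library is assumed to vary like the other groups. For the least abundant gene, SLC48A1, counts as low as 173 limit precision.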
